A study of Mus musculus with 2 samples.

Results

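The 9 genes described here, *Rora*, *Batf*, *Irf4*, *Maf*, *Ahr*, *Hif1a*, *Stat3*, *Runx1* and *Ikzf3*, encode transcription factors of the Th17 network. They were taken by gene symbol, and 9 of 9 were found, each on 1 row, among the 23282 gene rows of the count tables. The libraries came from primary spleen CD4 T cells of mice that carry *Fak* fl/fl alleles, in both groups. Naïve cells of both groups were activated with anti-CD3ε (10 μg/ml) and anti-CD28 (5 μg/ml). By the study's methods, the activated cells then received a retrovirus with GFP, either the empty control vector or RV-Cre. RV-Cre brings the Cre recombinase that deletes *Fak*. Cells were then kept for 3 days with IL-6 (50 ng/ml), TGFβ1 (1 ng/ml), TNF-alpha (1 ng/ml), IL-1beta (2 ng/ml) and antibodies to IFNgamma and IL-4 (5 μg/ml each). Sorted GFP+ cells were then sequenced. The control is WT by its genotype label, but the title of that sample gives *Fak* fl/fl with control virus, and the title was followed. Per the methods of the study, naïve T cells came from female mice of 6 to 8 weeks. Whether a library was made from 1 mouse or a pool is not given. No library of Cre-transduced cells with intact *Fak* was analysed here, so Cre and the loss of *Fak* cannot be told apart. With 1 library per condition there is no replicate check and no p-value.

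Th17 cells are helper T cells that make IL-17 and arise when naïve CD4 T cells are activated in the presence of TGFβ and IL-6. Signals from the T cell receptor induce BATF and IRF4, which bind DNA together and open chromatin at Th17 genes, while IL-6 activates STAT3 by phosphorylation. Lineage factors such as RORα, c-MAF and RUNX1 act on this prepared chromatin, AHR senses small aromatic ligands, HIF-1α responds to low oxygen and to activation, and Aiolos, the product of *Ikzf3*, silences *Il2*. STAT3 and HIF-1α are controlled largely at the protein level, which these counts do not measure.

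Reads counted on genes came to 13799264 for the control and 12305010 for RV-Cre. QuantSeq libraries are read from near the 3′ end of each transcript, and a count follows the number of transcripts rather than their length. *Ptk2*, the gene of FAK, had 110 control and 31 RV-Cre reads, and its ratio was 0.318 (95% interval 0.206 to 0.477). The ribosomal RNA gene *Rn45s* took 8.50% and 14.6% of the reads. *Gapdh*, on which an alternative scaling rests alone, had 956 control and 634 RV-Cre reads, and its ratio was 0.748 (95% interval 0.676 to 0.828). These counts are low beside those of *Aldoa*, another glycolytic gene, with 10095 control and 8808 RV-Cre reads. Whether all *Gapdh* reads were counted is not known and was not tested. Of the T cell markers, 6 of 8 have a row in the tables. Of these 6, 2 were 2-fold higher and none was lower in the RV-Cre library, *Cd4* having 1489 and 1342 reads, and *Cd3d*, with 3662 and 7475, being the highest by ratio. Read counts given as a pair are control first, then RV-Cre. Ratios are RV-Cre over control after TMM scaling, a log2 ratio is taken after adding 1 normalized read, and each 95% interval is an exact Clopper-Pearson interval of the split of reads, which covers counting error only.

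Sequence upstream of *Batf*, *Irf4* and *Stat3* is shown, the only members with a window of sequence wholly outside the annotated gene. The windows of *Rora*, *Hif1a* and *Runx1* were not wholly outside it and are not printed. Windows came from the RefSeq annotation of GRCm38.p6, the mm10 assembly, in which 6 of the 9 genes had at least 1 window. *Maf*, *Ahr* and *Ikzf3* had none. Each window printed covers bases -250 to -61 before the transcript start used by the table of RefSeq windows, 190 bases outside the annotated gene. For *Stat3* that start lies inside the outer end of the RefSeq gene given further on, so its window lies closer to that end. Sequences are written 5′ to 3′ on the strand of the gene. Capitals mark matches, on either strand, to 7 short motifs: TGANTCA (AP-1), TTCNNNGAA (STAT), a loose form of the κB site of NF-κB, TGTGGT (RUNX), AGGTCA (ROR half-site), GCGTG (AHR core) and ACGTG (HIF core).
*Batf*, chr12:85686470-85686659, plus strand: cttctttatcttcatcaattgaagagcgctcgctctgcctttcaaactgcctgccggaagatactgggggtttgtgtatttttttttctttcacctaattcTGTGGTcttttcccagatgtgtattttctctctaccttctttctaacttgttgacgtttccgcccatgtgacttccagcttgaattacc
*Irf4*, chr13:30748983-30749172, plus strand: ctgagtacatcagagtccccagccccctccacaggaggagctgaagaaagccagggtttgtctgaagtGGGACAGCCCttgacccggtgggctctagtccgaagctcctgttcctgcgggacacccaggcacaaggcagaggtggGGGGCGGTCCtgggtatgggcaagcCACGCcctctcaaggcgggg
*Stat3*, chr11:100939601-100939790, minus strand: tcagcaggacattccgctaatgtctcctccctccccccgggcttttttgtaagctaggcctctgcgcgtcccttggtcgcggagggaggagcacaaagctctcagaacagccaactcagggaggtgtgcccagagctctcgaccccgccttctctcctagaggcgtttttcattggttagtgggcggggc

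The *Batf* window held 1 match, to the RUNX letters. The *Irf4* window held 2 matches to the loose κB letters, starting at bases -182 and -105, and 1 to the AHR core. None of the 7 motifs was found in the *Stat3* window. Over all 32851 windows of this length, 35.2% held the loose κB letters, 21.2% the AHR core, 12.2% the HIF core, 11% the RUNX letters, 10.8% the ROR half-site, 5.51% the STAT letters and 5.22% the AP-1 letters. These matches describe the letters and are no evidence of binding.

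*Maf* was the member that differed most. After RV-Cre it was more than 2-fold lower, and no member was 2-fold higher. *Ahr*, *Batf* and *Irf4* were lower by smaller amounts, *Rora* and *Ikzf3* by less again and not with scaling to *Gapdh*, and *Hif1a*, *Runx1* and *Stat3* were not lower. The expression minimum was a log2 value of 4, reached in 1 library or both, and all 9 genes met it. Of the 12112 genes past the minimum, 12.3% were 2-fold lower or more and 14.2% 2-fold higher or more, against 1 and 0 of the 9. These shares also stand beside the 2-fold counts of gene lists and cell markers in this report. The 9 genes are abundant, 8 of them with a mean log2 value of at least 10, so they are also set against the 2473 genes at or above that value. Among those, 6.07% passed 2-fold on the lower side and 3.28% on the higher side. At a threshold of 1.5-fold, 2 of the 9, *Maf* and *Ahr*, were lower, beside 17.6% of the abundant genes. The median log2 ratio was -0.33 over the 9 genes (0.087 with scaling to *Gapdh*, which raised the median of all genes past the minimum by 0.44), -0.01 over all genes past the minimum and -0.10 over the abundant genes.

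Counting error is small at these depths. The 95% interval lay wholly below a ratio of 1 for 6 of the 9 genes, wholly above it for 1 (*Stat3*) and held 1 for 2 (*Hif1a* and *Runx1*). The interval lay below 1 for 51% and above 1 for 36.5% of the abundant genes, so an interval that leaves out 1 is the common case here and shows only that the 2 libraries differ.

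**Figure D1:**
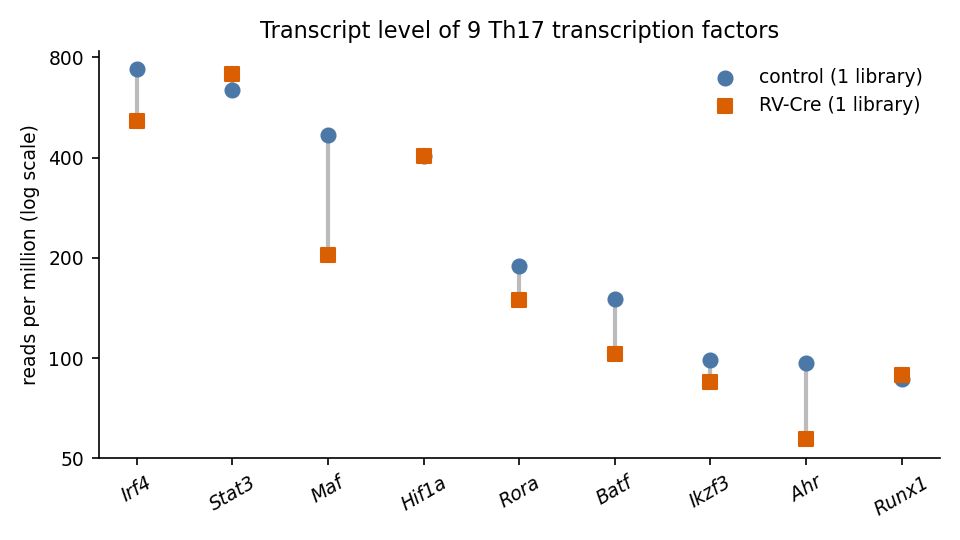
Transcript level of each factor in CPM on a log axis, for the control library (circles) and the RV-Cre library (squares), 1 library each. *Irf4* and *Stat3* are the highest in both libraries, and the longest line, for *Maf*, runs from 467 to 204.

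**Figure D2:**
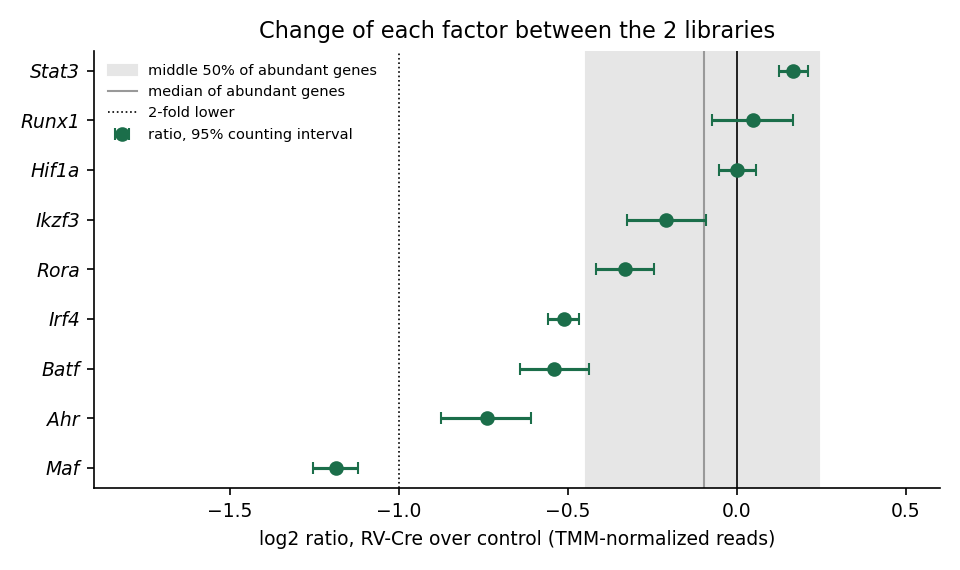
Log2 ratio of RV-Cre over control for each factor (points) with its 95% counting interval (bars), on TMM-normalized reads. The grey band is the middle 50% of the 2473 abundant genes, from -0.44 to 0.24. *Maf* lies beyond the dotted line of 2-fold lower. *Rora* and *Ikzf3* lie below 0 here and above it with scaling to *Gapdh*.

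Among the lineage factors, *Maf* was lower, *Rora* was lower except with scaling to *Gapdh*, and *Runx1* was not lower. *Maf* encodes c-MAF, a bZIP factor that Th17 cells use for *Il10* and *Il21*. It had 6445 and 2509 reads, or 467 and 204 CPM, which are reads scaled to the library total. The ratio was 0.439 (95% interval 0.419 to 0.460), a log2 ratio of -1.19. Of the abundant genes, 3.64% had a log2 ratio at or below that of *Maf*. Of all other genes past the minimum, those nearest to *Maf* in level in both libraries were *Pdia6* (6433 and 2467 reads), *Tfrc* (6363 and 2465 reads) and *Ranbp1* (6212 and 2616 reads), at distances of 0.024, 0.032 and 0.080 on the log2 scale over 2 libraries. *Rora* encodes the nuclear receptor RORα. Its counts were 2605 and 1835, and the ratio was 0.795 (95% interval 0.748 to 0.844). Its log2 ratio of -0.33 became 0.087 with scaling to *Gapdh*. *Runx1* encodes a Runt domain factor that takes part in the induction of *Il17a*. It had 1198 and 1097 reads, a ratio of 1.03 with an interval from 0.951 to 1.12.

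The early factors *Batf* and *Irf4* were lower by similar proportions. *Batf*, whose product is an AP-1 family bZIP protein without a transactivation domain, had 2078 and 1267 reads. Its ratio was 0.688 (95% interval 0.641 to 0.738). *Irf4*, whose product joins BATF and JUN proteins on composite DNA sites, had 10164 and 6316 reads, the highest count of the 9 in the control library. Its ratio was 0.701 (95% interval 0.679 to 0.724). Within a library, which needs no scaling, there were 20.4 *Batf* reads per 100 *Irf4* reads in the control and 20.1 after RV-Cre, a fold of 0.981 (exact 95% interval 0.908 to 1.06). The log2 ratios, -0.54 for *Batf* and -0.51 for *Irf4*, shrank to -0.12 and -0.09 with scaling to *Gapdh*.

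*Stat3*, which carries the IL-6 signal to the nucleus, was the one member whose interval lay above 1. Its counts were 8830 and 8782, from an RV-Cre library with the lower total. The ratio was 1.12 (95% interval 1.09 to 1.16), a log2 ratio of 0.17. In GENCODE M21 the last 72 bases of *Stat3* overlap the end of *Stat5a* on the opposite strand. In RefSeq the end of *Stat3* lies at base 100886806, outside that overlap. Neither the annotation nor the use of strand in counting is given, and reads in the overlap could be assigned to either gene. *Stat5a* had 2844 and 2417 reads.

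The environment sensors differed from each other. *Ahr*, which encodes the aryl hydrocarbon receptor, had 1331 and 706 reads. The ratio was 0.599 (95% interval 0.546 to 0.656) with a log2 ratio of -0.74, or -0.32 with scaling to *Gapdh*. *Hif1a*, which encodes the oxygen-regulated subunit of HIF-1, had 5598 and 4967 reads, a ratio of 1.00 with an interval from 0.964 to 1.04. Per 100 *Hif1a* reads there were 23.8 *Ahr* reads in the control and 14.2 after RV-Cre, a fold of 0.598 (exact 95% interval 0.541 to 0.661). *Ikzf3*, the Aiolos gene, had 1361 and 1044 reads and its ratio was 0.866 (95% interval 0.798 to 0.939). Its log2 ratio of -0.21 turned to 0.21 with scaling to *Gapdh*.

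**Figure D3:**
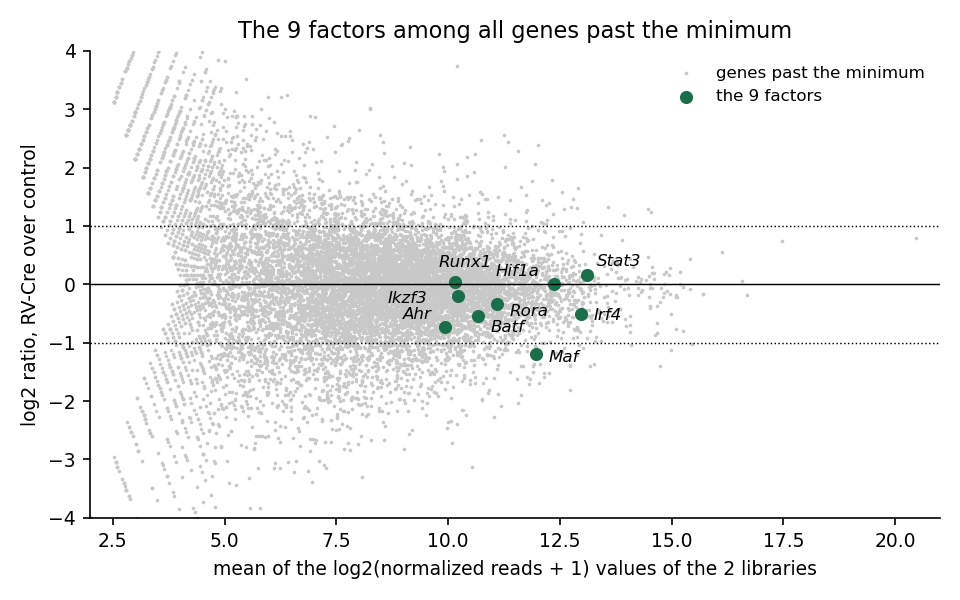
Log2 ratio of RV-Cre over control against the mean log2 value of both libraries for the genes past the minimum (grey) and the 9 factors (green). Dotted lines mark 2-fold, and 235 genes fall outside the plotted range. The factors lie at the abundant end, and *Maf* is the one below the lower dotted line. *Rora* and *Ikzf3* move above 0 with scaling to *Gapdh*.

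The order of the transcript levels differed between the libraries. In the control library it was *Irf4*, *Stat3*, *Maf*, *Hif1a*, *Rora*, *Batf*, *Ikzf3*, *Ahr* and *Runx1*, and the neighbours *Ikzf3* and *Ahr* did not differ beyond counting error. In the RV-Cre library it was *Stat3*, *Irf4*, *Hif1a*, *Maf*, *Rora*, *Batf*, *Runx1*, *Ikzf3* and *Ahr*, and the neighbours *Runx1* and *Ikzf3* did not differ beyond it. *Irf4* was the gene of rank 149 by reads among all rows in the control library and of rank 219 in the RV-Cre library. *Stat3* went from rank 176 to 134, and *Maf* from 285 to 805.

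Together the 9 genes had 39610 and 28523 reads. *Maf* made up 16.3% of these in the control and 8.80% after RV-Cre. *Stat3* made up 22.3% and 30.8%, and *Irf4* 25.7% and 22.1%. These shares need no scaling between libraries, and a share shows unequal change only. Of the 36 pairs of members, 32 had a within-library ratio that differed between the libraries beyond its exact 95% interval, including all 8 pairs with *Maf*. The 4 pairs that did not were *Batf* with *Irf4*, *Rora* with *Ikzf3*, *Hif1a* with *Runx1*, and *Runx1* with *Stat3*. The intervals were not adjusted for the number of pairs. Pairs of other abundant genes were not counted. Of single abundant genes, 51% had an interval below a ratio of 1 and 36.5% above it. The count of pairs is therefore not to be read as a trait of the 9 genes.

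*Maf*, *Irf4* and *Ikzf3* took a smaller share of their own gene family in the RV-Cre library, as did *Runx1*, *Batf* and *Hif1a* by smaller amounts. *Maf* held 73.9% of the MAF family reads in the control library (exact 95% interval 72.9% to 74.8%) and 60.6% in the RV-Cre library (59.1% to 62.1%). The small MAF genes, whose proteins lack a transactivation domain, took up much of the remainder, with *Mafk* at 7.10% and 16.2% and *Mafg* at 14.4% and 17.4%. *Mafk* had 620 and 671 reads, *Mafg* 1254 and 719, and *Maff* 404 and 200. *Mafa* and *Nrl* had 0 reads in both libraries, where a count of 0 allows up to 3 reads.

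Markers of myeloid cells were, in sum, higher in the RV-Cre library. Of the 12 myeloid markers, 10 passed the minimum, 4 of them 2-fold higher and 2 of them 2-fold lower. Their summed reads were 222 and 671, or 16.1 and 54.5 CPM. *C1qb*, a complement gene of macrophages, had 1 and 65 reads, *Marco* 5 and 289, and *Adgre1*, the F4/80 gene, 0 and 8. The 2 that were 2-fold lower were *Itgax*, with 27 and 1 reads, and *Lyz2*, with 22 and 7. Their part in the counts of the 9 genes was not tested. In bulk RNA, fewer cells of a type and less RNA per cell cannot be told apart.

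*Irf4* held 33.4% of the IRF family reads in the control library (exact 95% interval 32.9% to 33.9%) and 27.95% in the other (27.4% to 28.5%). *Irf8*, its closest relative, held the largest share in both libraries, 43.3% and 44.3%, with 13182 and 10015 reads. Per 100 *Irf8* reads there were 77.1 and 63.1 *Irf4* reads. The share of *Irf2*, a factor that restrains interferon responses, was 2.87% and 7.60%, from 873 and 1718 reads and a log2 ratio of 1.15. Of the 9 IRF genes, 1 (*Irf2*) passed 2-fold (2 with scaling to *Gapdh* or with library totals without *Rn45s*). *Irf1*, which is induced by interferons, had 4347 and 2532 reads and a log2 ratio of -0.61. IRF4 and IRF8 also act in B cells. Of the 7 B cell markers, 4 passed the minimum and 3 of these were 2-fold higher after RV-Cre, *Pax5* had 0 reads in both libraries and *Blk* 0 in the RV-Cre library. Their summed level was 3.91 and 9.51 CPM, against 737 and 513 for *Irf4*, and their part in its count was not tested. Of the 4 plasma cell markers, 3 passed the minimum and 1 (*Mzb1*) was at least 2-fold higher, the list summing to 992 and 926 reads, of which *Xbp1* held 950 and 869.

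*Ikzf3* held 21.5% of the Ikaros family reads in the control library (exact 95% interval 20.5% to 22.5%) and 14.9% in the RV-Cre library (14.1% to 15.75%). *Ikzf1*, which encodes Ikaros, took 46.0% and 62.1%, with 2915 and 4354 reads and a log2 ratio of 0.75. *Ikzf2*, which encodes Helios, had 340 and 188 reads and a log2 ratio of -0.68. None of the 5 passed 2-fold (1 with scaling to *Gapdh*). *Ikzf4* had 1014 and 816 reads and *Ikzf5* 707 and 607. Per 100 *Ikzf1* reads there were 46.7 and 24.0 *Ikzf3* reads, a fold of 0.514 (exact 95% interval 0.467 to 0.564).

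*Stat3* was the main STAT gene by reads in both libraries, with 53.0% (exact 95% interval 52.2% to 53.7%) and 55.7% (54.9% to 56.4%) of the family. None of the 7 STAT genes passed 2-fold (1 with scaling to *Gapdh*). *Stat5a* and *Stat5b*, which carry the IL-2 signal, had ratios of 0.959 and 0.956, and both intervals held 1. Per 100 *Stat5b* reads there were 401 *Stat3* reads in the control and 471 after RV-Cre, a fold of 1.17 (exact 95% interval 1.10 to 1.26). *Stat2*, a mediator of type I interferon signals, had 229 and 319 reads and the highest log2 ratio of the family, 0.65.

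*Runx1* held 21.5% of the RUNX reads in the control library (exact 95% interval 20.4% to 22.6%) and 18.7% in the RV-Cre library (17.7% to 19.75%). *Runx3*, the most abundant of the 3 RUNX genes here and a factor of CD8 and Th1 cells, had 4258 and 4639 reads. No gene of the 4 RUNX and CBF genes passed 2-fold. *Cbfb*, whose product is the shared partner that stabilizes RUNX proteins on DNA, had 2223 and 1206 reads and a log2 ratio of -0.71. There were 53.9 *Runx1* reads per 100 *Cbfb* reads in the control and 91.0 after RV-Cre, a fold of 1.69 (exact 95% interval 1.51 to 1.88). Markers of CD8 and NK cells moved in both directions, with 2 of the 6 past the minimum 2-fold higher and 2 of them 2-fold lower. The 2 higher were the CD8 genes *Cd8a*, with 322 and 580 reads, and *Cd8b1*, with 122 and 274. The 2 lower were *Klrd1*, with 240 and 57 reads, and *Klrk1*, with 41 and 9. The summed level of the list was 90.1 and 127 CPM. *Klrb1c* was at 0 in the RV-Cre library and *Ncr1* at 0 in the control library. Their part in the *Runx3* counts was not tested.

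*Batf* held 94.5% and 92.3% of the BATF reads, with *Batf3* at 111 and 106 reads and *Batf2* at 9 and 0. The JUN partners of BATF did not share 1 direction. *Jund* had 3111 and 7097 reads, a log2 ratio of 1.36, while *Junb* had 5565 and 4349 reads and a log2 ratio of -0.18, which became positive with scaling to *Gapdh*. There were 66.8 *Batf* reads per 100 *Jund* reads in the control and 17.85 after RV-Cre, a fold of 0.267 (exact 95% interval 0.246 to 0.290). Per 100 *Junb* reads there were 37.3 and 29.1 *Batf* reads. *Fosl1* was the lowest by ratio, with 172 and 41 reads and a log2 ratio of -1.87. Of the 10 BATF, JUN and FOS genes past the minimum, *Jund* alone was 2-fold higher (2 genes with scaling to *Gapdh*) and *Fosl1* alone 2-fold lower.

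**Figure D4:**
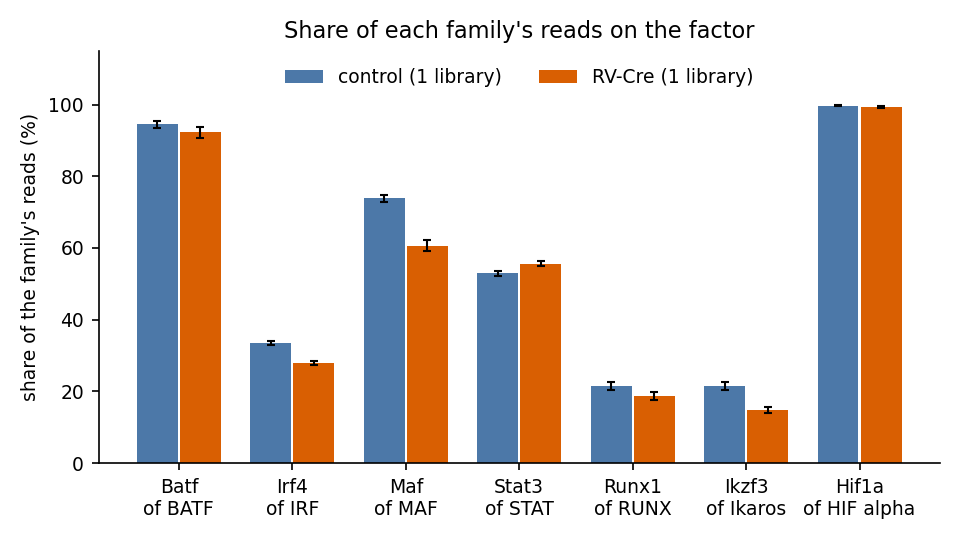
Share of the reads of each gene family that fell on the factor, in percent, for the control and RV-Cre libraries (1 each), with exact 95% binomial intervals of counting error. The bar for *Stat3* is higher in the RV-Cre library and the other 6 are lower, with *Maf* going from 73.9% to 60.6% and *Hif1a* from 99.7% to 99.3%.

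The partners and targets of AHR were next set beside *Ahr*. *Arnt*, whose product is the obligate partner of both AHR and HIF-1α, had 267 and 208 reads, and the interval of its ratio, 0.730 to 1.06, held 1. Per 100 *Arnt* reads there were 499 and 339 *Ahr* reads, a fold of 0.681 (exact 95% interval 0.553 to 0.839). The chaperone gene *Hsp90aa1*, whose product holds unliganded AHR in the cytoplasm, had a log2 ratio of -0.51, and *Hsp90ab1* one of -0.18 (positive with scaling to *Gapdh*). Of the 6 AHR target genes, 4 passed the minimum, and 2 of these were 2-fold lower and 0 higher by that much. The shares over all genes past the minimum were 12.3% and 14.2%. Of the 7 AHR partners and chaperones past the minimum, 1 (*Ahrr*) was 2-fold lower and 0 were 2-fold higher. *Ahrr*, the repressor that AHR itself induces, had 53 and 5 reads. Its ratio was 0.106 (95% interval 0.0332 to 0.264). *Cyp1b1* had 30 and 9 reads and *Cyp1a1* 33 and 15, both xenobiotic-metabolizing enzymes, with ratios of 0.339 (95% interval 0.141 to 0.731) and 0.513 (0.259 to 0.971). *Tiparp*, a further target, had 778 and 756 reads and a ratio of 1.10 with an interval from 0.991 to 1.21. The median log2 ratio of the 4 targets was -1.20, and -0.80 with scaling to *Gapdh*.

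Genes that HIF-1 is known to induce were lower more often than higher, 15 of 19 having a log2 ratio below 0, a split that depends on the scaling. Of 23 such genes, 19 passed the minimum, 3 of them 2-fold lower (*Vegfa*, *Tpi1* and *Slc2a1*) and 0 of them 2-fold higher, beside 12.3% and 14.2% of all genes past the minimum. With library totals without *Rn45s* or scaling to *Gapdh* the counts were 1 and 1. *Vegfa*, the vascular growth factor, had 146 and 34 reads, and its ratio was 0.263. *Tpi1*, a glycolytic enzyme, had 2834 and 1198 reads and a log2 ratio of -1.07, and *Slc2a1*, the glucose transporter GLUT1, 988 and 436 reads and a ratio of 0.498. *Pfkfb4*, with 27 and 47 reads, had the highest log2 ratio, 0.95. The median of the 19 was -0.38, against -0.01 for all genes past the minimum, and it turned to 0.037 with scaling to *Gapdh*. *Gapdh* itself had a log2 ratio of -0.42, so scaling to it brings any list median near that value to about 0. *Eno1* is listed at 0 in both libraries, beside *Aldoa* with 10095 and 8808 reads and *Ldha* with 14848 and 10105. How reads that map to several places were counted is not given, so this 0 is not read as absence of the transcript. Among the oxygen sensors, *Egln3*, a prolyl hydroxylase that marks HIF-1α for degradation and is itself induced by HIF-1, had 2546 and 444 reads and its ratio was 0.197 (95% interval 0.178 to 0.218). *Egln1* had 944 and 573 reads and *Vhl* 343 and 310, log2 ratios of -0.55 and 0.03. *Epas1*, which encodes HIF-2α, had 9 and 35 reads, a log2 ratio of 2.01, beside the myeloid markers given above. Of the 8 HIF subunit and sensor genes past the minimum, 1 (*Epas1*) was 2-fold higher and 1 (*Egln3*) 2-fold lower. *Hif1a* held 99.7% and 99.3% of the reads of the HIF alpha genes. In GENCODE M21 the end of *Hif1a* overlaps *Gm15283* on the opposite strand and *Gm49321* on the same strand, and neither has a row in the tables.

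All 6 listed genes for receptors and kinases upstream of STAT3 passed the minimum, and 3 of them passed 2-fold on the higher side and 0 on the lower side. The shares over all genes past the minimum were 14.2% and 12.3%. *Il21r*, which encodes the IL-21 receptor, had 2156 and 5485 reads, and the ratio was 2.87 (95% interval 2.73 to 3.02). *Il6ra*, the IL-6 receptor, had 270 and 626 reads and a log2 ratio of 1.38, and *Jak1* 5144 and 11239 reads and one of 1.30. *Il6st*, the signal-transducing gp130, had 492 and 572 reads and *Jak2* 1893 and 1790, log2 ratios of 0.39 and 0.09. Of the 7 feedback and target genes of STAT3, 0 passed 2-fold, with a median log2 ratio of 0.48. *Bcl3* had 1851 and 3139 reads, *Pim1*, a survival kinase, 3511 and 5854, and *Il21* 2987 and 1708, log2 ratios of 0.94, 0.91 and -0.63. The count on the higher side was 2 with library totals without *Rn45s* and with quantile normalization, and 3 with scaling to *Gapdh*.

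Of the 11 Th17 target genes, on which several of the 9 factors act, 7 were 2-fold lower and 0 were 2-fold higher, and the median log2 ratio was -1.66 (6 lower with scaling to *Gapdh*). Over all genes past the minimum, 12.3% were 2-fold lower and 14.2% 2-fold higher. Of this list, *Il17a* and *Il17f* were already reported as lower by the study from these same data. The list was chosen with earlier results known, so its count is a description and no independent result. The cytokine genes *Ccl20*, with 88 and 4 reads, and *Il24*, with 71 and 7 reads, had the lowest ratios, 0.0513 and 0.111. At the other end, *Il22* had 63 and 56 reads and *Prdm1*, which encodes Blimp-1, 87 and 65 reads, and both intervals held a ratio of 1. *Maf*, at -1.19, lay between *Il9* (578 and 226 reads, log2 ratio of -1.18) and *Il1r1* (88 and 24 reads, log2 ratio of -1.66).

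**Figure D5:**
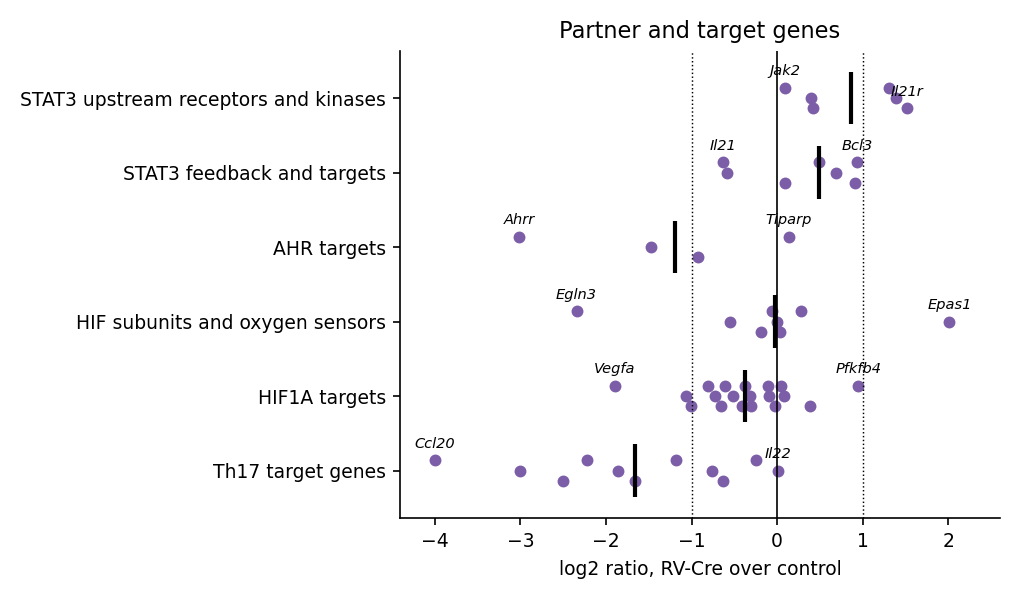
Log2 ratio of RV-Cre over control for the genes past the minimum of 6 lists, with the list median as a black bar and dotted lines at 2-fold. The labels name the lowest and highest gene of each list. The medians run from -1.66 for the Th17 target genes to 0.86 for the receptors and kinases upstream of STAT3. That of the HIF1A targets turns from -0.38 to 0.037 with scaling to *Gapdh*, whose own log2 ratio was -0.42.

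The 9 genes lie on 6 chromosomes. In the RefSeq annotation of GRCm38.p6, *Batf* lies at chr12:85686720-85709087 and *Irf4* at chr13:30749233-30766981, both on the plus strand, and neither overlaps another gene in GENCODE M21. *Ahr* lies at chr12:35497979-35534989 on the minus strand and *Hif1a* at chr12:73901324-73947554 on the plus strand. *Stat3* lies at chr11:100886806-100939594 and *Ikzf3* at chr11:98464610-98546031, both on the minus strand. *Rora* spans 734843 bases at chr9:68653404-69388246 on the plus strand, and *Runx1* lies at chr16:92601466-92826074 on the minus strand. *Maf* lies at chr8:115703253-115706894 on the minus strand, where GENCODE M21 carries its end to base 115682942, so how much of its 3′ end was counted depends on the annotation, which is not named in the sources used here. *Rora*, *Maf*, *Runx1* and *Ahr* overlap a noncoding gene on the opposite strand, outside the last 500 bases.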

How the data were processed

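RNA-seq was done on GFP+ cells in 1 control and 1 RV-Cre library, from 500 ng of total RNA per library. The authors deposited raw read counts per gene symbol, without normalization. The submitters' processing notes name bcl2fastq 2.20.0.422, Bowtie2, bedtools and the mm10 build. The annotation, filters and use of strand are not given in the sources used here. Bowtie2 does not split reads across introns, and whether it was run on the genome or on transcripts is not given.

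Here, both tables (23282 rows, of which 79 share a symbol) were scaled by TMM (edgeR 4.0.16, R 4.3.3, size factors 1.06 and 0.941), and log2(normalized count + 1) was compared. The expression minimum was a log2 value of 4 in at least 1 library, and 2-fold was the threshold. Ratios and shares have exact 95% Clopper-Pearson intervals, and the ratio of a pair of genes a conditional exact interval (scipy 1.17.1). Reads carry no molecular identifiers, and neither the intervals nor the 3 reads allowed for a 0 cover more than counting error. No test was run. The calculations were tested on simulated data. The members and gene lists were chosen with earlier results of these data known. The text names the members, the families, the extremes of each list and *Ptk2*, while further list genes are named after their values were seen. Some genes of these lists are not reported here. The fold, minimum, pseudocount, interval level and scaling (with DESeq2 1.42.0 among others) were varied.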

Additional observations from a re-analysis of the deposited data

How the results depend on the processing

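No paired analysis was possible because neither condition had a replicate, so no library could be left out either. *Maf*, *Ahr*, *Batf* and *Irf4* stayed below 0 and *Stat3* above 0 under all 7 scalings and pseudocounts run, *Maf* between -1.20 and -0.77. With scaling to *Gapdh*, which raised the median of all genes past the minimum by 0.44, *Rora* turned to 0.087, *Ikzf3* to 0.21 and the median of the 9 genes to 0.087, and 0 members were 2-fold lower. The cause was not tested. *Hif1a* ranged from -0.01 to 0.42. The median was -0.24 with library totals without *Rn45s* and -0.22 with quantile normalization. Of the 63 values of single members under alternatives, 43 stayed within the counting interval. At a fold of 1.5, 2 members were lower, and at 3-fold 0 were. No other alternative, the minimum and the 99% interval included, moved a count of members.

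The limits lie in the design more than in depth: the smallest count of a member was 706 reads, and 1 library per condition gives no spread between cultures.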

Other observations

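Of 12 further factors that promote the program, 1 was 2-fold lower and 0 were 2-fold higher. The latter count was 1 with library totals without *Rn45s* and with quantile normalization, and 2 with scaling to *Gapdh*. *Trps1*, a GATA-type repressor, had 848 control and 254 RV-Cre reads and a log2 ratio of -1.56, and *Crem*, a cAMP-responsive factor, 607 and 368 reads and one of -0.55. *Nfkbiz*, which encodes IκBζ, had 627 and 1060 reads and a log2 ratio of 0.93. Of 8 factors that restrain the program, 7 passed the minimum, with 1 past 2-fold on each side. These were *Gfi1*, with 893 and 302 reads (log2 ratio -1.39, within 2-fold when scaled to *Gapdh*), and *Tcf7*, a factor of naïve and memory T cells, with 142 and 424 reads (log2 ratio 1.74). *Ets1* had 4088 and 4959 reads, *Egr2* 1204 and 629.

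Of the nuclear receptors and cofactors that share DNA elements or partners with RORα, *Nr1d1*, which encodes the REV-ERBα repressor, had 55 and 7 reads, and its ratio was 0.144 (95% interval 0.0552 to 0.316). Its relative *Nr1d2* had 342 and 307 reads and a log2 ratio of 0.02. The coactivator gene *Ncoa1* had 421 and 215 reads (log2 ratio -0.79), and *Rorb* 6 and 21. Of these 9 genes, *Rora* among them, 1 (*Rorb*) was 2-fold higher and 1 (*Nr1d1*) 2-fold lower.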
